A study of Mus musculus with 4 samples.

Results

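The 10 genes described here encode AP-1 transcription factors and other immediate early factors: Fos, Fosb, Fosl1, Fosl2, Jun, Junb, Jund, Atf3, Egr1 and Ier3. They were chosen by symbol, with earlier results of these data known, as were the other gene lists below. All 10 have a row among the 22632 genes of the deposited expression table. RNA was sequenced from mouse small intestinal organoids, epithelial cultures grown from isolated crypts, harvested 24 hours after seeding. The series has 4 libraries and 4 groups, each group with a single library. The Yap+/- library came from Yap+/fl;VillinCre organoids, which keep 1 working copy of Yap1, and the Yap-/- library from Yapfl/fl;VillinCre organoids; the Villin promoter drives Cre in the gut epithelium. The other 2 libraries came from YapTg organoids, which carry a doxycycline-inducible wild-type Yap transgene under a Cre-driven reverse tetracycline transactivator (rtTA), grown without or with doxycycline (1.5 mg/ml as the labels write it). The driver of the Cre in the YapTg line, the age of the mice and the number of mice per culture are not given in the labels. All 4 cultures grew in Matrigel with EGF, Noggin and R-spondin 1, so every group was under a growth factor that acts on immediate early genes. No library had doxycycline without the transgene, so an effect of the drug and one of YAP cannot be told apart.

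AP-1 is a dimer of basic leucine zipper proteins. A Jun protein pairs with another Jun, with a Fos protein or with an ATF protein, and the dimer binds short palindromic DNA sites. Fos, Jun and Egr1 are switched on within minutes of growth factor or stress signalling through MAP kinases, before any protein has to be made, which is why they are called immediate early genes. In the gut epithelium they respond to growth factors and injury, and AP-1 sites often lie beside the TEAD sites through which YAP acts on enhancers.

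The libraries held between 44934170 and 75269003 reads. The floor used below is 1 RPKM, a read number scaled by gene length and library total, and from 10530 to 10722 genes reached it in each library. Yap1 followed the labels, with 16.7 RPKM in Yap+/- organoids, 3.35 in Yap-/- organoids, 25.1 without doxycycline and 1039 RPKM with it. The 9 epithelial markers all reached the floor in every library. Their summed level was 2979, 2556 and 2629 RPKM in the Yap+/-, Yap-/- and uninduced libraries and 6385 RPKM in the induced one. With induction the keratin genes Krt18 (5.18-fold), Krt19 (2.97-fold) and Krt8 (2.95-fold) were higher and Cdx1, an intestinal homeobox gene, was 2.13-fold lower. Stromal and muscle markers summed to between 0.489 and 3.61 RPKM over 10 genes, lowest in the induced library, with Col3a1, Dcn, Des and Lum at 0 throughout. Vim, the only 1 of them at the floor in any library, was 5.93-fold lower with induction. Immune markers summed to between 5.03 and 9.72 RPKM over 8 genes, highest in the induced library. Cd52 made that maximum (2.79 RPKM uninduced, 5.76 induced), and Csf1r was also higher with induction (1.17 and 1.99 RPKM). Lyz2 (1.25 and 0.557 RPKM) and Cd68 (1.22 and 0.782 RPKM) were lower, so the 4 at the floor split into 2 higher and 2 lower. Endothelial and red blood cell markers had no gene at the floor. The part of these marker differences in the results below was not tested. With 1 library per group no test was possible, and every difference below stands without replicates and without a p-value. The intervals given are exact 95% counting intervals, which leave out culture and library variation, and PCR copies are not independent molecules. In whole cultures, more RNA per cell and more cells that hold the transcript cannot be told apart.

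The YapTg libraries without and with doxycycline were set side by side to see how the genes stood with the transgene on. All 10 genes had their highest level in the induced library, where 40.1% of 11285 genes at 1 RPKM in any library had theirs. A gene was called at least 2-fold higher or lower on the scale of log2(RPKM + 1), which understates the difference of low genes, and only where the higher library reached 1 RPKM. By that rule 7 of the 9 members at the floor were higher with doxycycline (Ier3, Fosl1, Atf3, Fos, Junb, Egr1 and Jun) and 0 were lower, where 5.85% of 11108 genes tested were higher and 5.8% lower. All 9 were higher beyond counting error, where 45.5% of genes were higher by any amount and 36.5% had a counting interval above 1. A pseudocount of 5 RPKM ended the calls of Jun (log2 ratio 0.87) and Egr1 (0.78), leaving 5. The median log2 ratio of the 9 was 1.24, against -0.04 over all genes tested.

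**Figure D1:**
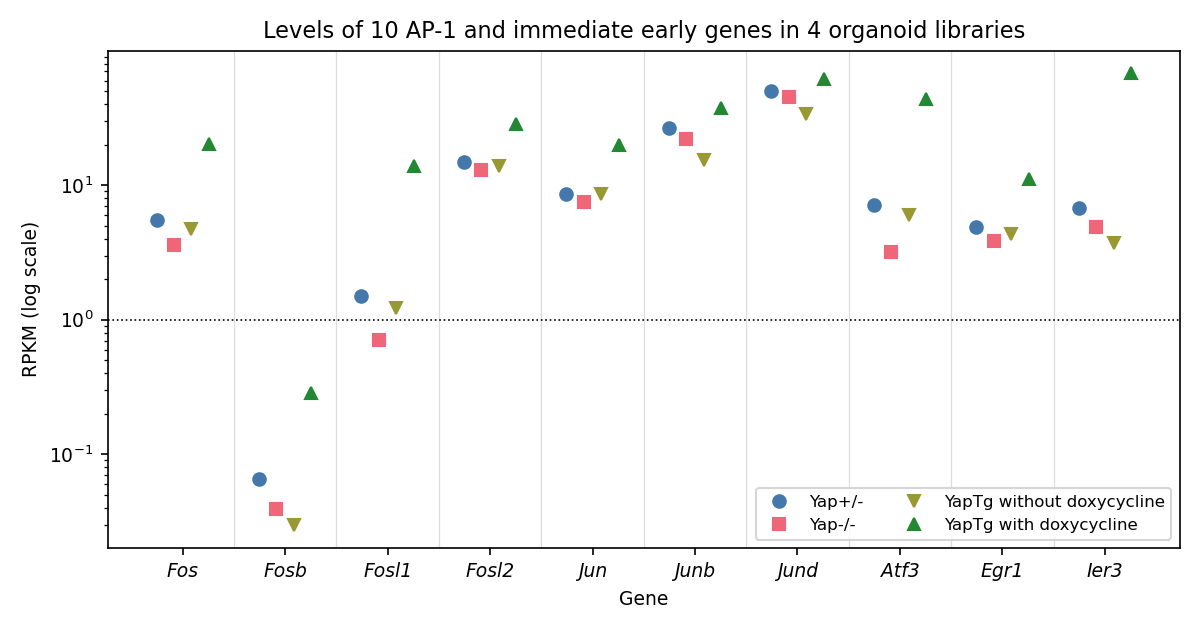
RPKM of each gene (log axis) in the 4 libraries, 1 point per library; the dotted line marks the floor of 1 RPKM. The induced YapTg library is the highest for all 10 genes, and Fosb stays below the floor in all 4.

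Ier3, an early response gene that modulates survival and ERK signalling, moved furthest. Its level was 6.80 RPKM in the Yap+/- library, 4.88 in the Yap-/- library, 3.72 without doxycycline and 67.8 RPKM with it. The induced library stood far above the other 3, which lay within 1.83-fold of each other. Induced over uninduced was 18.3-fold (95% interval 14.8 to 22.7), and 33 of 11108 genes had a larger log2 ratio.

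Among the Fos proteins, which need a partner to bind DNA, Fosl1 (Fra-1, a Fos protein made later than Fos itself and known from migrating epithelia) differed most of those at the floor. It was at 1.49 RPKM in Yap+/- organoids, 0.701 in Yap-/- organoids, 1.21 without doxycycline and 13.8 RPKM with it. It was low in the other 3 libraries and 11.4-fold higher with induction (95% interval 9.25 to 14.2). Fos, the classical growth factor-induced member, was at 5.53, 3.59, 4.75 and 20.2 RPKM in the same order, 4.25-fold higher with induction (3.87 to 4.68). Fosl2 (Fra-2) was the most abundant Fos family transcript in every library, at 14.8, 12.9, 13.9 and 28.6 RPKM. Its ratio of 2.06 (1.99 to 2.14) fell just short of the 2-fold rule once 1 RPKM was added to both levels (log2 ratio 0.99). Fosb was at 0.0656, 0.0394, 0.0297 and 0.283 RPKM and never reached the floor. Its ratio of 9.55 rests on at least 5 and 80 reads, with an interval of 3.93 to 30.2.

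The Jun proteins can pair with each other as well as with Fos proteins. Their genes had ratios from 1.83 to 2.45 with induction, less than Fosl1, Fos and Fosb, while Fosl2 (2.06) lay among them. Jun, the classical partner of Fos, was at 8.55 RPKM in Yap+/- organoids, 7.51 in Yap-/- organoids, 8.56 without doxycycline and 19.8 RPKM with it, 2.31-fold higher with induction (2.17 to 2.46). Junb, a Jun protein with weaker activity of its own, was at 26.6, 22.2, 15.3 and 37.5 RPKM, 2.45-fold higher (2.30 to 2.61). Jund, the broadly expressed and least inducible Jun protein, was at 50.3, 45.1, 33.7 and 61.5 RPKM, 1.83-fold higher (1.76 to 1.89), and was the other member under the 2-fold rule, with a log2 ratio of 0.85. For Junb and Jund the Yap+/- library lay closer to the induced than to the uninduced one by ratio. No strand setting is given for the counting, and Jund shares 919 bases with the antisense gene Gm11175 in GENCODE M21. Gm11175 stood at 115, 107, 71.8 and 136 RPKM, the same order of libraries as Jund, and reads of the pair cannot be told apart without strand. Junb shares 351 bases with Prdx2, which was lower in the induced (22.9 RPKM) than in the uninduced library (37.6 RPKM). Fosl1 shares 2767 bases with Ccdc85b and Jun 689 bases with Junos, neither with a row of its own to compare.

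Outside the families, Atf3, a stress-induced ATF protein that pairs with Jun, was at 7.12 RPKM in Yap+/- organoids, 3.19 in Yap-/- organoids, 5.98 without doxycycline and 43.7 RPKM with it. The induced library was 7.31-fold above the uninduced one (6.69 to 8.0), and 92 of 11108 genes had a larger log2 ratio. Egr1, a zinc finger factor driven by the same MAP kinase and serum response inputs, was at 4.87, 3.83, 4.35 and 11.1 RPKM, 2.54-fold higher with induction (2.33 to 2.78). The members thus fell into a set with ratios from 7.31 to 18.3 (Atf3, Fosl1, Ier3, and Fosb below the floor) and a set between 1.83 and 2.54 (Jund, Fosl2, Jun, Junb, Egr1), with Fos between them.

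**Figure D2:**
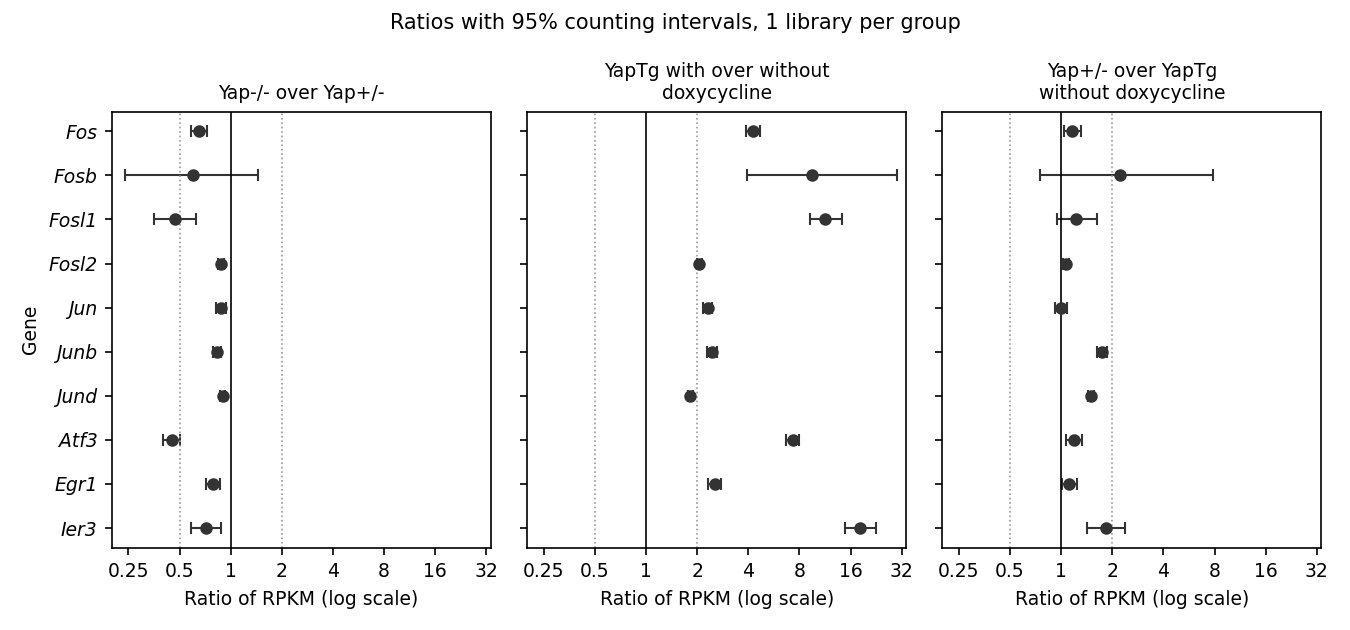
Ratio of RPKM for each gene in the 3 comparisons (log axis), with 95% counting intervals as bars; dotted lines mark 2-fold. All 10 lie below 1 in Yap-/- over Yap+/- and above 1 with induction, where Ier3 reaches 18.3, and the wide bars of Fosb come from its few reads.

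Because these genes were higher together with induction, their promoters were searched for shared sites. RefSeq promoter entries (GRCm38.p6, 250 bases before to 50 after the start) were searched for 8 of the 10 symbols. Egr1 and Fosl1 were left out of the search, so the counts of 8 below say nothing of their promoters. The stretches below are the 120 bases before the start for the 2 classical partners Fos and Jun, for Junb, and for Ier3 and Atf3. The last 2 had the largest ratios with induction among the members at the floor that were searched. Capitals mark matches on either strand to TGACG, the core of the cyclic AMP response element, to the Jun promoter site TGACATCA or to the TATA sequence TATAAA. None of the stretches holds a match to the other motifs searched.
Fos (chr12:85473770-85473889, plus strand): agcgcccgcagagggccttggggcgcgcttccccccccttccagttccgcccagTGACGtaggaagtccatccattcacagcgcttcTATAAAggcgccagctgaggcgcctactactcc
Jun (chr4:95052223-95052342, minus strand): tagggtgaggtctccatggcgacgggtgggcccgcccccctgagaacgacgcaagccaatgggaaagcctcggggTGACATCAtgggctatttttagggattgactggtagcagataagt
Junb (chr8:84978749-84978868, minus strand): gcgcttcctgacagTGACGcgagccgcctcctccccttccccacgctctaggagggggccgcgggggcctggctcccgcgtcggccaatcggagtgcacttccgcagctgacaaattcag
Atf3 (chr1:191183334-191183453, minus strand): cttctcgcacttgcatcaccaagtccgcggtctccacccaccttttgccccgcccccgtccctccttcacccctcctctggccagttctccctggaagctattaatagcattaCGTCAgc
Ier3 (chr17:35821593-35821712, plus strand): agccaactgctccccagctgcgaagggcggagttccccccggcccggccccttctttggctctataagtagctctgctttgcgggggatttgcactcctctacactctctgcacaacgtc
The classical AP-1 site TGANTCA, which reads the same on both strands, matched 0 of the 8 windows, where 7.81% of 32851 promoter windows of the same length hold it. The full cyclic AMP response element TGACGTCA (1.79% of all windows), the TEAD site GGAATG (14.7%) and the CArG box of serum response factor (1.63%) also matched 0 of 8. These letters are absent from these windows only. The core TGACG, which the full element contains, matched 4 of 8 (Fos, Fosb, Junb and Atf3; 20.8% of all windows), 66 and 129 bases before the start in Fos, 60 in Fosb, 106 in Junb and 7 in Atf3. TGACATCA matched Jun, 45 bases before the start, and 3.62% of all windows. The EGR site GCGNGGGCG matched Fosb and Fosl2 (5.55% of all windows). TATAAA matched Fos, 33 bases before the start, and Junb at the start itself (13.6% of all windows). TGACG and TGACATCA were added after the sequences had been seen, and a match is a description of the letters.

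Yap-/- organoids were compared with Yap+/- organoids to see how the genes stood without Yap. All 10 genes were lower in Yap-/- than in Yap+/- organoids, by ratios from 1.12 (Jund) to 2.23 (Atf3). For the 9 at the floor the counting interval lay below 1 for each, where 34.5% of 10710 genes tested were lower by any amount and 15.7% had an interval below 1. In this pair Fosl1 reached the floor only in Yap+/- organoids, so it could enter only as lower. The differences were small: 0 of 9 passed the 2-fold rule, which 0.57% of genes passed downward and 0.336% upward. The median log2 ratio of the members was -0.28, against 0.05 over all genes tested.

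Atf3 was 2.23-fold lower (95% interval 1.98 to 2.51) and Fosl1 2.13-fold lower (1.61 to 2.83). Both missed the 2-fold rule only through the added 1 RPKM, with log2 ratios of -0.95 and -0.55. Fos was 1.54-fold lower (1.38 to 1.72), Ier3 1.39-fold (1.14 to 1.71) and Egr1 1.27-fold (1.15 to 1.4). The Jun proteins and Fosl2 differed least: Junb was 1.20-fold, Fosl2 1.15-fold, Jun 1.14-fold and Jund 1.12-fold lower. Fosb had at least 14 and 10 reads, and its interval of 0.688 to 4.19 for Yap+/- over Yap-/- includes no difference. Atf3, Fosl1, Fos and Ier3, the 4 members at the floor with the largest ratios under induction, were also the 4 with the largest ratios under loss, in another order. The 2 comparisons use different libraries.

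The Yap+/- library set against the uninduced YapTg library gives a yardstick, although Yap1 itself differed between them, at 0.666 of the uninduced level in Yap+/- (0.638 to 0.695). It shares a library with each of the other comparisons, so the 3 are not independent. Of the 9 members at the floor, 8 were higher in Yap+/- (34.4% of 10883 genes were), 7 of them with an interval above 1 (23% of genes), and Jun was level at a ratio of 0.998, turning slightly higher under median-ratio and upper-quartile scaling. The members' median log2 ratio was 0.18, against -0.11 over all genes tested. None passed the 2-fold rule, which 1.11% of genes passed upward and 0.726% downward. Ier3 (1.83-fold, 1.42 to 2.37), Junb (1.73-fold, 1.62 to 1.86) and Jund (1.50-fold, 1.44 to 1.55) differed more between these reference libraries than between Yap+/- and Yap-/-. Atf3 (1.19-fold, 1.07 to 1.33), Fosl1 (1.23-fold, 0.942 to 1.61) and Fos (1.16-fold, 1.04 to 1.31) differed less between reference libraries than with loss, as did Egr1, Fosl2 and Jun.

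The order of the libraries split the genes. The Yap-/- library was the lowest for 6 of 10 (Fos, Fosl1, Fosl2, Jun, Atf3 and Egr1), where 22.8% of 11285 genes at 1 RPKM in any library had it lowest. The uninduced library was the lowest for the other 4 (Fosb, Junb, Jund and Ier3), where 9.90% of genes had it lowest. The Yap+/- library came second for 9 of 10 (27.4% of genes), and the uninduced library came second for Jun. The step from the induced to the next library exceeded counting error for all 10, from 1.22-fold in Jund to 9.97-fold in Ier3. Neighbours whose interval included 1 were uninduced and Yap+/- for Jun and Fosl1, and the 3 libraries without doxycycline for Fosb.

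Levels per length also allow the families to be set out member by member. Fos family transcripts summed to 21.9 RPKM in Yap+/- organoids, 17.2 in Yap-/- organoids, 19.9 without doxycycline and 62.9 RPKM with it, and Jun family transcripts to 85.5, 74.8, 57.6 and 119 RPKM. Summed Fos family RPKM was 3.17-fold and summed Jun family RPKM 2.06-fold higher with induction. The Jun sum was 3.91, 4.34, 2.90 and 1.89 times the Fos sum in the same order of libraries, lowest in the induced one. Fosl2 made up 67.6% of Fos family RPKM in Yap+/- organoids, 74.9% in Yap-/- organoids, 69.8% without doxycycline and 45.5% with it. Fosl1 made up 6.82%, 4.07%, 6.11% and 22.0%, and Fos 25.3%, 20.8%, 23.9% and 32.1%. These shares depend on dividing by length: in reads not so divided Fosl2 still made up 69.9% of the induced Fos family, Fos 19.8% and Fosl1 9.84%, against 85.9%, 11.8% and 2.19% without doxycycline. Those read numbers are lower limits for each gene, so shares of the true reads may differ. The Jun family kept its order in every library: Jund made up between 51.8% and 60.3%, Junb between 26.6% and 31.6%, and Jun at most 16.6%. These are shares of transcripts, and dimers were not measured.

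**Figure D3:**
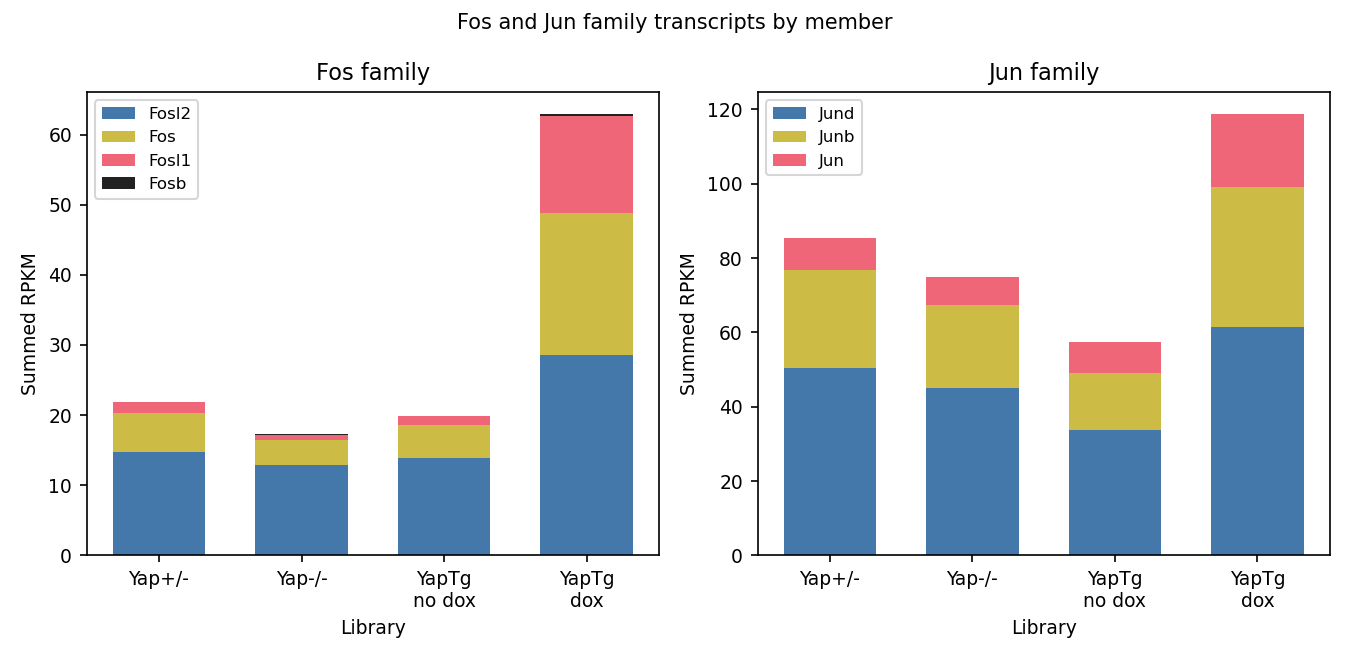
Summed RPKM of the Fos family (left) and the Jun family (right) in each library, stacked by member. Fosl2 is the base of the Fos bars throughout, and Fosl1 grows from 6.11% to 22.0% of the Fos sum with induction, while Jund leads the Jun bars in all 4.

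The members are compact genes, as immediate early genes tend to be. In GENCODE M21 (GRCm38) they have a median span of 4.70 kb and 3 exons, where 10833 coding genes at 1 RPKM in any library have medians of 23.1 kb and 9 exons. Jun, Junb and Jund have a single exon, Egr1 and Ier3 have 2, and the Fos family genes and Atf3 have 4. Ier3 is the shortest of all at 1.24 kb, and Atf3 (47.7 kb) and Fosl2 (22.0 kb) are the only members over 10 kb. Junb and Jund both lie on chromosome 8, and no other pair shares a chromosome.

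Other bZIP genes, possible partners of the members, gave a median log2 ratio of 0.28 with induction over 12 of 16 genes at the floor. The 3 at least 2-fold higher were Jdp2, a Jun-binding repressor (0.659 to 7.76 RPKM, 11.8-fold), and the small Maf genes Maff (4.29 to 16.4 RPKM, 3.84-fold) and Mafk (10.6 to 26.4 RPKM, 2.49-fold). None was at least 2-fold lower, and Nfe2l2, the oxidative stress factor NRF2, had the lowest log2 ratio at -0.27. Over all genes tested 5.85% were at least 2-fold higher and 5.8% lower. In this pair Jdp2 reached the floor only with doxycycline, and such a gene could count only as higher. With loss of Yap 0 of 11 passed 2-fold, where 0.57% of genes tested were lower and 0.336% higher. Atf5, a stress-responsive ATF gene, was furthest lower at 51.8 and 35.4 RPKM (1.46-fold), and Maf was furthest higher at 2.53 and 2.95 RPKM.

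Other immediate early genes were not uniform. With induction 11 of the 26 that reached the floor were 2-fold higher or more and 0 lower, with a median log2 ratio of 0.64. Over all genes tested 5.85% were higher by that rule and 5.8% lower, with a median of -0.04. Among the 11, Ctgf, Csrnp1 and Nr4a1 reached the floor only with doxycycline, so they could count only as higher. Highest were Cyr61 (1.33 to 78.4 RPKM) and Ctgf (0.161 to 26.0 RPKM), matrix protein genes that are also textbook YAP targets. Among the rest were the stress kinase gene Plk2 (2.88 to 64.1 RPKM), the zinc finger genes Klf6 (18.9 to 102 RPKM) and Klf4 (7.90 to 43.8 RPKM), Csrnp1 (0.698 to 7.21 RPKM), the nuclear receptor gene Nr4a1 (0.396 to 2.63 RPKM), Gadd45b (4.82 to 27.6 RPKM), Gadd45a (7.38 to 21.3 RPKM), Rhob (2.49-fold) and Ier5 (11.4 to 24.0 RPKM). Ier2, an immediate early gene usually induced with Fos, stood at 25.9 and 27.6 RPKM, and was named after its values were seen. The antiproliferative genes Btg2 (16.3 and 8.87 RPKM) and Btg1 (22.2 and 14.1 RPKM) were furthest lower. With loss of Yap 0 of 22 passed 2-fold, where 0.57% of genes tested were lower and 0.336% higher. The median was -0.03, and Klf6 (21.8 and 15.2 RPKM) and Klf4 (9.57 and 7.39 RPKM) were furthest lower. Gadd45g (1.89 and 2.68 RPKM) and Btg2 (19.1 and 24.1 RPKM) were furthest higher.

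**Figure D4:**
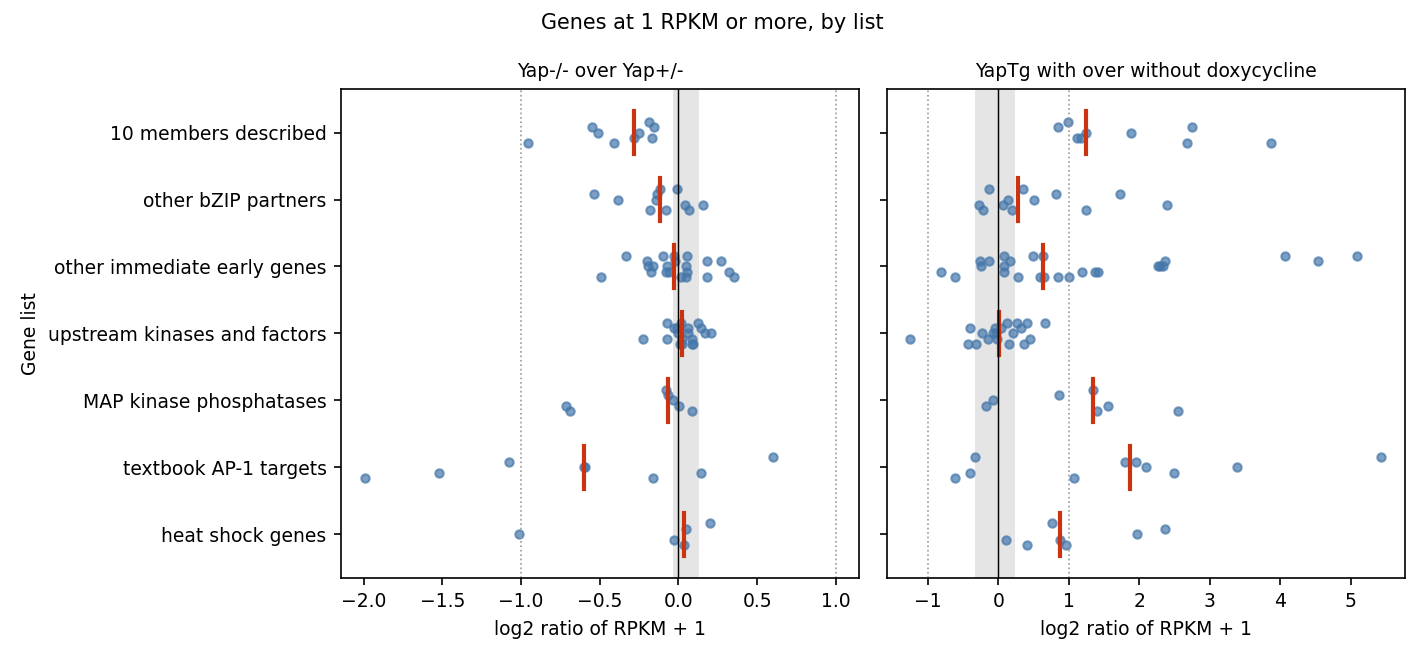
log2 ratio of RPKM + 1 for each gene at 1 RPKM or more, by list, with loss (left) and induction (right); red bars are list medians, the grey band is the interquartile range of all genes tested and dotted lines mark 2-fold. The members' median is -0.28 on the left and 1.24 on the right, and the median of upstream kinases and factors lies within the grey band in each panel.

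The kinases and factors that drive these genes went both ways in transcript level with induction. Over 20 of 21 upstream genes the median was 0.01, with 10 higher and 10 lower by any amount. Their median absolute log2 ratio was 0.24, against 0.29 over all genes tested. By the 2-fold rule 5.85% of genes tested were higher and 5.8% lower. Of the upstream genes 0 were higher by that rule, and Map2k6, a kinase of the p38 branch, was the 1 lower (3.36 to 0.837 RPKM). Map2k3, its relative, was furthest higher at 40.1 and 64.1 RPKM. MAP kinase phosphatases, feedback genes that switch the kinases off, had 4 of 7 at least 2-fold higher, against 5.85% of genes tested. The 4 were Dusp1 (1.15 to 11.6 RPKM, 10.1-fold), itself an immediate early gene, Dusp10 (0.980 to 4.82 RPKM), Dusp6 (7.64 to 21.9 RPKM) and Dusp5 (11.3 to 30.3 RPKM). In this pair Dusp10 reached the floor only with doxycycline, so it could count only as higher. Dusp10 (1.43 and 0.481 RPKM) and Dusp1 (1.69 and 0.668 RPKM) were also the furthest lower with loss of Yap, 2.98-fold and 2.54-fold, both under the 2-fold rule with the added 1 RPKM. Among the upstream genes 13 of 19 were higher and 6 lower with loss, with a median of 0.02, where 34.5% of genes tested were lower. Kinase activity was not measured.

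Textbook AP-1 target genes had 10 of 20 at the floor with induction, with a median log2 ratio of 1.88 and 7 at least 2-fold higher. Over all genes tested the median was -0.04 and 5.85% were at least 2-fold higher. Lor and Plau reached the floor only with doxycycline, so they could count only as higher. Lor (0.276 to 54.2 RPKM), which encodes the envelope protein loricrin, and Plaur (7.25 to 85.8 RPKM), the urokinase receptor gene, were furthest higher. The others were Plau (0.0190 to 4.76 RPKM), Hbegf (3.70 to 19.0 RPKM), Hmox1 (2.94 to 14.2 RPKM), Sprr1a (29.0 to 103 RPKM) and Ccnd1 (34.2 to 72.7 RPKM). Mmp7, a Paneth cell protease gene, had the lowest log2 ratio at 96.3 and 62.7 RPKM. The matrix protease genes Mmp3, Mmp9, Mmp10 and Mmp13, named after their values were seen, stayed below 1 RPKM in all libraries. With loss of Yap 3 of 8 were at least 2-fold lower and 0 higher: Plaur (10.5 and 1.88 RPKM, 5.57-fold), Sprr1a (87.5 and 29.9 RPKM, 2.93-fold) and Hmox1 (3.05 and 0.923 RPKM, 3.30-fold). By any amount 6 of 8 were lower and 2 higher, Mmp7 (62.5 and 95.2 RPKM, 1.52-fold) and Cd44 (7.39 and 8.25 RPKM, 1.12-fold). Over all genes tested 0.57% were at least 2-fold lower and 0.336% higher, and 34.5% were lower by any amount. In that pair Hmox1 reached the floor only in Yap+/- organoids, so it could count only as lower. Vegfa, named after its values were seen, was lower both with loss (15.8 and 10.1 RPKM) and with induction (11.9 and 9.22 RPKM). Sprr1a was also 3.02-fold (2.82 to 3.23) higher in Yap+/- than in uninduced YapTg organoids, as large a gap as with loss, and was the 1 target past 2-fold in that pair. Many of these genes answer to several factors, and binding of AP-1 was not measured.

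Heat shock genes, which cell stress also switches on, had 7 of 7 higher with induction, 2 of them at least 2-fold, and a median of 0.87. Over all genes tested 45.5% were higher by any amount and 5.85% at least 2-fold, with a median of -0.04. Hspa1a and Hspb1 reached the floor only with doxycycline, so they could count only as higher. The 2 at least 2-fold higher were the near-identical copies Hspa1b (2.19 to 15.5 RPKM) and Hspa1a (0.563 to 5.10 RPKM), which can share reads. Hspb1, a small heat shock protein gene, stood at 0.0432 and 1.03 RPKM, 23.9-fold higher with a wide interval of 6.40 to 201, and missed the rule through the added 1 RPKM (log2 ratio 0.96). Hspa1b was also the 1 of 5 at least 2-fold lower with loss of Yap (3.42 and 1.19 RPKM), where 0.57% of genes tested were. By any amount 3 of those 5 were higher in Yap-/- and 2 lower, where 34.5% of genes tested were lower. Their median was 0.04, against 0.05 over all genes tested. Hspa1a and Hspa1b had their highest level in the same library as the members. Their lowest was in Yap-/-, as for 6 of the 10 members, but Hspa1a was below 1 RPKM in every library without doxycycline. The part of stress in the members' levels was not tested.

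For each member whose log2(RPKM + 1) spanned 1 or more, the 3 genes of most like pattern were found by Euclidean distance between centred profiles over the 4 libraries. Nearest to Fos were Slamf9, Dusp3 and Car2 (distances 0.05 to 0.08), and to Jun Plcd1, Mark4 and Ddhd1 (0.04 to 0.05). Nearest to Fosl2 were Nfkb2, Kctd9 and Arhgef5 (0.05 to 0.09), and to Egr1 Man2b2, F11r and Eif4ebp1 (0.06 to 0.09). Nearest to Atf3 was Tnfrsf12a, the receptor gene of the cytokine TWEAK, at 30.2 RPKM in Yap+/- organoids, 16.3 in Yap-/- organoids, 26.9 without doxycycline and 182 RPKM with it (distance 0.08), followed by Epn3 and Gngt2 (0.24 and 0.28). Fosl1 was nearest to Arhgap40, Abcc5 and Slc35e4 (0.12 to 0.23), and Junb to Sertad1, Tubb2a and Rras (0.15 to 0.20). Ier3 had no gene closer than 0.43, with Vnn1, Isg15 and Adam8 nearest. Among the members themselves Jun and Egr1 were closest (0.10), and Fosb and Ier3 furthest apart (2.83), Fosb being too low to span much on this scale. With 4 libraries many genes share a pattern, so these distances are a description.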

How the data were processed

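RNA from 4 organoid cultures was sequenced as 1 library per group, with groups taken from genotype and title. Per the submitters' processing notes, CASAVA 1.8, FastQC and TopHat 1.4.1 were used with mm9. No counter, annotation or strand setting is named in the sources used here. The authors deposited RPKM values; the unit was worked out from the numbers, as the file header gives none. All 4 sample columns were used (0 left unused).

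RPKM values were used as deposited. Ratios are of RPKM; log2 ratios add a pseudocount of 1 RPKM. Library totals were solved from low genes and GENCODE M21 lengths, and a gene length giving whole reads (within 0.001) in every library was found for 17377 of 17378 genes above 0. Multiples of a fitting length also fit, so the shortest was taken, which gives the fewest reads and the widest exact (Clopper-Pearson, conditional binomial) 95% intervals. Read numbers are therefore lower limits. Calling and intervals were tested on simulated reads with counting variation only, which says nothing of culture or library variation. Python 3.11.15, pandas 2.3.3 and scipy 1.17.1 were used.

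Compared were Yap-/- with Yap+/-, induced with uninduced YapTg, and Yap+/- with uninduced YapTg. The members and the other lists (6 pathway and 5 marker lists) were chosen with earlier results of these data known. Atf7, with several rows under its symbol, was left out. Named are all members, Yap1, every list gene at least 2-fold apart, and 3 genes of like pattern per member (among genes reaching 5 RPKM, without predicted genes). Up to 2 pathway-list genes furthest higher or lower are named with induction and with loss, but not for every list and direction. In the reference pair only Sprr1a is named from these lists. Alternatives were other pseudocounts, floors, scalings and thresholds, counting intervals, the members without the most changed one, and reads not divided by length. Sequences are RefSeq's on GRCm38.p6, another build than mm9, and were used for sequence only.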

Additional observations from a re-analysis of the deposited data

How the results depend on the processing

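Of the alternatives only the 2 other scalings could turn a direction, and under both every member at the floor kept its own with loss and with induction. In the reference pair only Jun turned. The loss count of 0 members at 2-fold became 1 (Atf3) with a pseudocount of 0.1, 2 (Atf3 and Fosl1) with no pseudocount, an alternative chosen after seeing the data, and 9 when an interval excluding 1 was the rule. The induction count of 7 became 3 (Atf3, Fosl1 and Ier3) at 4-fold, 5 with a pseudocount of 5 (without Jun and Egr1) and 8 (with Fosl2) with a pseudocount of 0.1, with none or with median-ratio scaling, and its median of 1.24 became 1.07 with a pseudocount of 5. The reference count of 0 became 7 when an interval excluding 1 was the rule. Over all genes of the reference pair the median log2 ratio of -0.11 became 0.01 after median-ratio scaling, and the split of 121 higher and 79 lower became 172 and 62, or 159 and 63 after upper-quartile scaling. With reads not divided by length Fosl2 made up 84.6%, 88.5%, 85.9% and 69.9% of the Fos family in Yap+/-, Yap-/-, uninduced and induced organoids, and Jund 65.8%, 67.0%, 63.8% and 57.5% of the Jun family, since long transcripts then weigh more. The read numbers are lower limits, so shares of the true reads may differ. No paired analysis was possible because each group has 1 library, and no library could be left out. Of 135 values of single members under other pseudocounts and scalings, 102 moved by less than the half-width of their counting interval and 33 by more. Depth limits Fosb most, with at least 5 to 80 reads per library, and also Fosl1, with at least 81 to 145 in the libraries without doxycycline.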
